A study of Mus musculus with 4 samples.

Results

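The 10 genes described here encode proteins that coat lipid droplets or help to form and enlarge them: the perilipins Plin2, Plin3, Plin4 and Plin5, the CIDE proteins Cidea, Cideb and Cidec, the fat storage-inducing proteins Fitm1 and Fitm2, and the droplet dehydrogenase Hsd17b13. They were taken by gene symbol from a table of 23920 genes in which each of them was found, with 13 transcript rows that were summed per gene. Liver RNA had been sequenced from SREBP1c knockout (KO) mice and SREBP1c wild-type (WT) mice in 2 libraries each. All 4 libraries came from male C57BL/6 mice aged 12 weeks, which had fasted for 24 h and then been refed for 12 h. The labels do not say how the KO allele was made or whether each library is a separate animal, so the p-values cover the spread among the 4 samples alone, part of which may be technical.

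A lipid droplet is a core of triglyceride and sterol ester under a single layer of phospholipid, and it buds from the endoplasmic reticulum. Perilipins cover that surface and limit the access of lipases, CIDE proteins pass lipid between touching droplets so that one grows, and FITM proteins act in the endoplasmic reticulum where droplets form. SREBP1c, a product of Srebf1, is the insulin-responsive activator of fatty acid synthesis genes in hepatocytes. It is therefore most active in the refed state, in which the liver normally stores newly made fat.

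The values are FPKM (fragments per kilobase of transcript, scaled to a fixed number of mapped fragments), a unit scaled for transcript length, so that levels of different genes can be set beside each other. Srebf1, the targeted gene, fell to 8.63 and 6.97 FPKM in KO, against 63.7 and 58.2 FPKM in WT (log2 difference -2.82, SE 0.13, limma adjusted p = 0.00172). The adjusted p is over the 9820 genes with a mean of at least 1 FPKM, of which 0.0713% passed 0.05. Hepatocyte markers summed to 14671 and 14615 FPKM in KO and to 14120 and 16040 FPKM in WT. Apoa1 weighed most in these sums, at 7802 and 7619 FPKM in KO and 8029 and 8880 FPKM in WT. Tat varied most among these markers, at 290 and 715 FPKM in KO and 319 and 400 FPKM in WT. KO replicate 2 differed from the rest in acute phase genes, such as Saa1 with 34.7 and 1244 FPKM in KO against 65.8 and 87.3 FPKM in WT. Skeletal muscle markers summed to 0 and 0.16 FPKM in KO and to 7.28 and 0 FPKM in WT. In bulk tissue, fewer cells of a type and less RNA per cell cannot be told apart.

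The promoters of the 5 members whose KO and WT values did not overlap, and of Plin2, are shown because their genes carry the differences and the levels described next. They are RefSeq sequences of build GRCm38.p6, the assembly of mm10, each reading 5′ to 3′ on the gene's strand from 250 bases before the annotated start to 50 bases after it. Cidec has a further window in the same set, at chr6:113434715-113435014 for another annotated start, which is not shown. Capitals mark 3 motifs, each searched on both strands. The E-box is spelled CACGTG, the box bound by NF-Y is CCAAT, and the letters of a TATA box are TATAA. The windows lie on the minus strand at chr6:113435711-113436010 (Cidec), chr17:56290462-56290761 (Plin3), chr5:103977339-103977638 (Hsd17b13), chr17:56109733-56110032 (Plin4) and chr4:86670010-86670309 (Plin2), and on the plus strand at chr14:55575424-55575723 (Fitm1).
Cidec: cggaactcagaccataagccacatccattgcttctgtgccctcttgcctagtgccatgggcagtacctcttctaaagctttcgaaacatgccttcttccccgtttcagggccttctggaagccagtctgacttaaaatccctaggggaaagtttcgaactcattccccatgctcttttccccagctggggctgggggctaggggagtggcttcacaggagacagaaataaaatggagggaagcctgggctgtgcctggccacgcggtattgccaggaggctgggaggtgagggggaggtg
Fitm1: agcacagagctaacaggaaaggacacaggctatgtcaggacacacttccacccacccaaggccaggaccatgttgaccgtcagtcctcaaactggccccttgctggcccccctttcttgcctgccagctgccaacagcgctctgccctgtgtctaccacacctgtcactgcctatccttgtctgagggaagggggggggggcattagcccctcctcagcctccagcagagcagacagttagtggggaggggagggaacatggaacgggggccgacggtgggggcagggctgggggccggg
Plin3: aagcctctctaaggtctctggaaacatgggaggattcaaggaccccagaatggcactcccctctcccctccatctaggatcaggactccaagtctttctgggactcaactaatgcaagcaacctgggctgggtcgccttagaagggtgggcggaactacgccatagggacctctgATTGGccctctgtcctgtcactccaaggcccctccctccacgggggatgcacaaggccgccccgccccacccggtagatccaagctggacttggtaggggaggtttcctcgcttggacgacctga
Hsd17b13: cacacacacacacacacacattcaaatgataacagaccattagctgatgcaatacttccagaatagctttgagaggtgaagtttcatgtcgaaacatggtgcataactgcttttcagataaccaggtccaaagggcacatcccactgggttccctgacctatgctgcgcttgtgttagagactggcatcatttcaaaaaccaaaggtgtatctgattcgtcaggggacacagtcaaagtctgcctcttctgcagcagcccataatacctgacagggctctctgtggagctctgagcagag
Plin4: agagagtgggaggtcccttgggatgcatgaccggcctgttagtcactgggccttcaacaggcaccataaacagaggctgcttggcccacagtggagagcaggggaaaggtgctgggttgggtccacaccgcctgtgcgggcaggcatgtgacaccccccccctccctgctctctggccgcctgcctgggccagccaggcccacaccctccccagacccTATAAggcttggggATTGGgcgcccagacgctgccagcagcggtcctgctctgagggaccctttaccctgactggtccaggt
Plin2: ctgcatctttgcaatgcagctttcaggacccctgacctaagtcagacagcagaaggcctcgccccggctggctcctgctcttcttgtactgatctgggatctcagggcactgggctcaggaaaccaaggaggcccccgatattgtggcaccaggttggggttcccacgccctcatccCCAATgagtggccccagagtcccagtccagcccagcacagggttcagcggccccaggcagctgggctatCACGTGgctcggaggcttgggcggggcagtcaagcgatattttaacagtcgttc

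No member promoter held TCACNCCAC, a consensus of the sterol response element that SREBPs bind, among 11 windows of 9 members. The same letters were found in 1.24% of 32851 promoters of equal length. The consensus direct repeats of LXR (DR4) and of PPARs (DR1) were also found in none of the 11, against 0.0152% and 0.0396% of all promoters. An E-box stood at position -4 of Plin2 and in no other member window, against 7.15% of all promoters. CCAAT was found in 4 of the 11 windows, all of them perilipin promoters, and in 37.4% of all promoters. TATAA was found in 3 of the 11 and in 24.9% of all promoters, and it lay 32 bases before the start of Plin4 and 27 bases before the upstream start of Plin5. CCAAT and TATAA were added after the sequences had been seen, and none of these matches overlapped another.

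In level the members fell into a high, a middle and a low set. Hsd17b13, a dehydrogenase made mainly in hepatocytes that sits on droplets, was the highest member in both genotypes, at 340.9 ± 16.3 FPKM in KO and 413 ± 13.2 FPKM in WT (SD, n = 2 each). Cideb, the CIDE protein of hepatocytes, followed with 273 ± 24.1 FPKM in KO and 255 ± 11.8 FPKM in WT. Plin2, the main droplet coat protein of hepatocytes, came next with 235 ± 16.2 FPKM in KO and 224 ± 29.1 FPKM in WT.

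A gap separated these genes from the others: the mean of Plin2 was 5.65 times that of Fitm1 in KO and 8.62 times in WT. Below it, the order in KO was Fitm1, Plin5, Plin3, Fitm2 and Cidec, and in WT Fitm1, Plin3, Plin5, Fitm2 and Cidec. Plin4 and Cidea were last in both genotypes. Neighbours in this order had libraries that did not overlap, except Plin4 and Cidea in both genotypes and Plin3 and Plin5 in WT. Plin3 and Plin5 thus had indistinguishable levels in WT, at 23.2 ± 1.78 and 23.1 ± 0.321 FPKM, while in KO Plin3 had 16.3 ± 0.157 FPKM and Plin5 had 23.1 ± 2.91 FPKM (SD, n = 2 each).

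**Figure D1:**
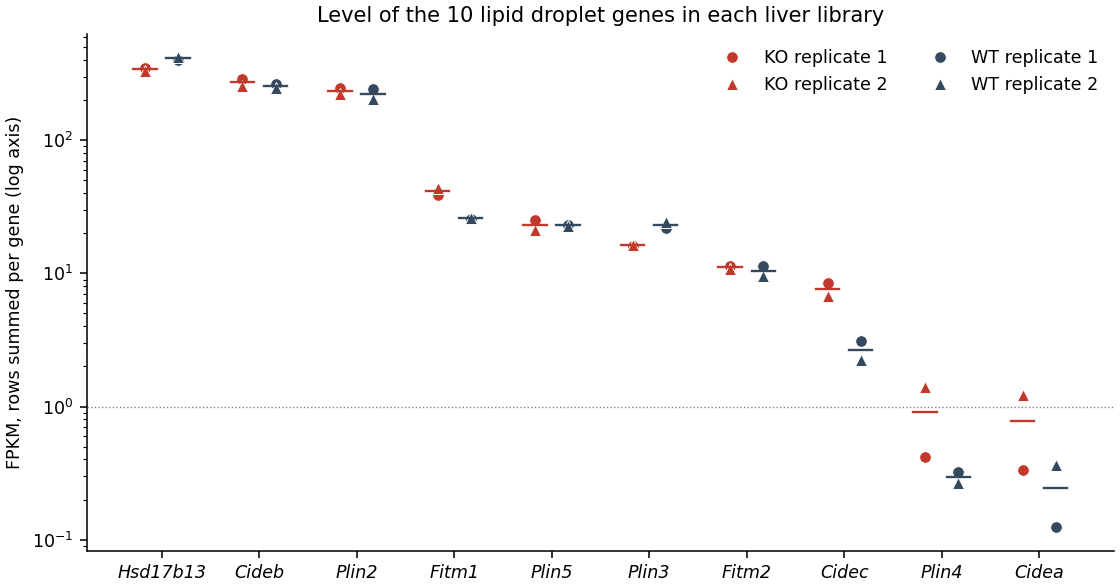
FPKM of each member on a log axis, with rows summed per gene, for KO (red, left) and WT (dark blue, right); circles are replicate 1, triangles replicate 2, and short lines the group means. Both KO points lie above both WT points for Cidec, Fitm1 and Plin4 and below them for Plin3 and Hsd17b13; the dotted line is the 1 FPKM minimum for testing, which the means of Plin4 and Cidea did not reach.

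The comparison of KO with WT asks how these genes stand when SREBP1c is missing. Of the 10 members, 8 reached a mean of 1 FPKM and were tested, and none passed the threshold over all genes, where 0.0713% of genes did. At an unadjusted p under 0.05 there were 3 of them, Cidec, Fitm1 and Plin3, against 7.75% of all genes tested. For Cidec and Fitm1 each KO library lay above each WT library, as for 22.4% of all genes. For Plin3 and Hsd17b13 each KO library lay below each WT library, as for 16.4% of all genes. Each direction thus held 2 of the 8 members tested, too few for a close comparison with the background. Log2 differences are KO minus WT after 1 was added to each FPKM value, which shrinks those of genes with low values. Their median was 0.08 over the 8 members and 0.02 over all genes. Taken without sign, the median was 0.19 over the 8 members and 0.11 over all genes. The members did not share a direction, with 5 positive and 3 negative differences.

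Plin2 had 246 and 223 FPKM in KO, against 245 and 204 FPKM in WT. The replicates of each genotype differed by more than the genotypes did, and the groups overlapped. The log2 difference was 0.07 (SE 0.14, 95% interval -0.28 to 0.42), a range that still holds differences of moderate size in either direction. Without WT replicate 2 it was -0.06.

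Plin3, a perilipin found in the cytosol of most cells that moves to newly forming droplets, had 16.2 and 16.4 FPKM in KO, against 21.9 and 24.4 FPKM in WT. Both KO libraries lay below both WT libraries, and the KO values were almost equal. The KO mean was 1.42-fold lower (log2 difference -0.48, SE 0.11, limma adjusted p = 0.352). Plin3 ranked 115 by p among the 9820 genes tested. The log2 difference lay between -0.56 and -0.41 with any 1 library left out.

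Plin5, which coats droplets in tissues that oxidise fat and ties them to mitochondria, had 25.2 and 21.1 FPKM in KO, against 23.3 and 22.8 FPKM in WT. The WT values lay inside the range of the KO values. The log2 difference was 0.00 at 2 decimals (SE 0.12, 95% interval -0.30 to 0.30). Its 2 transcript rows differ in their annotated start, which lies at 56117596 and 56117298 on chromosome 17 (mm10), and share a coding length of 1389 bases. The upstream row held 66.2% and 71.6% of the sum in KO and 55.5% and 73.7% in WT, so the use of the starts also overlapped.

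Plin4, a perilipin of adipocytes and muscle, stayed below the minimum for testing. It had 0.42 and 1.40 FPKM in KO, against 0.32 and 0.27 FPKM in WT. Both KO libraries were above both WT libraries, but KO replicate 2 alone was 3.33 times KO replicate 1, a wider gap than that between KO replicate 1 and either WT library. Without a filter on low values its log2 difference was 0.51 (SE 0.27, limma adjusted p = 0.742).

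Cidec, also called FSP27, which enlarges droplets in adipocytes and in fatty liver, had the largest difference among the members tested. It had 8.41 and 6.75 FPKM in KO, against 3.09 and 2.23 FPKM in WT. Every KO library was above every WT library, and the mean was 2.85-fold higher in KO. The log2 difference was 1.23 (SE 0.16, 95% interval 0.83 to 1.63, limma adjusted p = 0.135), higher in 2 of 2 KO libraries, and Cidec ranked 21 by p among all genes tested. Leaving out KO replicate 1 gave an adjusted p of 0.0169 and leaving out KO replicate 2 gave 0.0117, fits in which 3.12% and 1.19% of all genes passed and in which the lone KO library is assumed to vary like the WT pair. Leaving out WT replicate 1 gave 0.710 and WT replicate 2 gave 0.827. The alternatives together ran from 0.0117 to 0.827, with log2 differences of 1.06 to 1.49.

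Both rows of Cidec contributed to its sum. They have nearly the same annotated start, 6 exons each and the same coding length of 717 bases, and differ in total length, 1703 against 1720 bases. The leading row had 7.38 and 5.41 FPKM in KO, against 3.09 and 1.52 FPKM in WT, with no overlap. The second row had 1.03 and 1.33 FPKM in KO, against 0.0019 and 0.71 FPKM in WT, also with no overlap. The leading row took 87.7% and 80.2% of the sum in KO and 99.9% and 68.1% in WT, so the split between these near-identical transcripts varied most among the WT libraries, and the sum is the safer value. With rows in place of sums the log2 difference of the leading row was 1.19 (SE 0.28, limma adjusted p = 0.559).

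**Figure D2:**
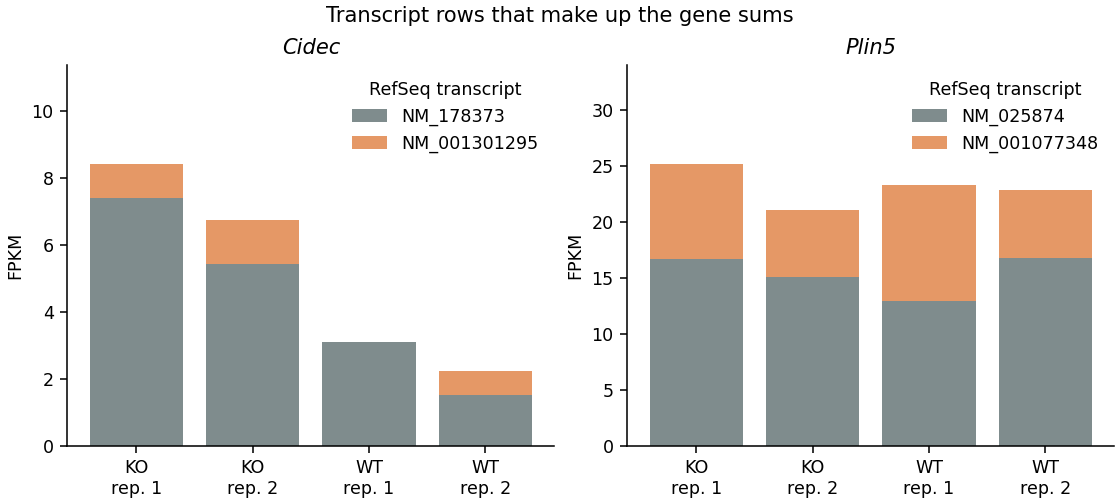
FPKM of the transcript rows that add up to Cidec (left) and Plin5 (right) in each library, with the KO libraries left of the WT libraries; bar height is the gene sum. Both Cidec rows are higher in KO, while the Plin5 sums lie between 21.1 and 25.2 FPKM in all 4 libraries.

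Markers of adipocytes, which make much Cidec and Plin4, were measured beside them. The 6 markers summed to 3.95 and 32.7 FPKM in KO, against 0.92 and 0.51 FPKM in WT. In KO nearly all of the sum was Cfd, with 3.83 and 32.1 FPKM in KO against 0.44 and 0.12 FPKM in WT. Cfd, which encodes complement factor D, was thus the only marker of the 6 with a mean of at least 1 FPKM. Adiponectin (Adipoq) had 0.039 and 0.17 FPKM in KO and 0.078 and 0.085 FPKM in WT. Plin1, the perilipin that defines adipocytes, had 0 and 0.054 FPKM in KO and 0.073 and 0.027 FPKM in WT, and leptin (Lep) was listed at 0 in all 4 libraries. KO replicate 2, the library with the most Cfd, also had the highest Plin4 and Cidea of the 4 libraries and a lower Cidec than KO replicate 1. The other markers, all below 1 FPKM, did not share its order. Adipoq and Retn were highest in KO replicate 2, but Plin1 and Ucp1 were highest in WT replicate 1. The part of adipocytes in these values was not tested.

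Cideb, which in hepatocytes takes part in loading fat onto very low density lipoproteins, had 290.4 and 256 FPKM in KO, against 263 and 247 FPKM in WT. The groups overlapped. The log2 difference was 0.10 (SE 0.13, 95% interval -0.22 to 0.41).

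Cidea, a CIDE protein of brown fat that also appears in fatty liver, was close to the floor. It had 0.33 and 1.23 FPKM in KO, against 0.12 and 0.36 FPKM in WT, and the groups overlapped. KO replicate 2 was again the highest library, at 3.70 times KO replicate 1. By the implied depth these values stand for roughly 8.43 and 28.1 fragments in KO and 3.16 and 8.42 fragments in WT. Without a filter the log2 difference was 0.48 (SE 0.28, limma adjusted p = 0.771). Ucp1, which marks brown adipocytes, had 0.084 and 0.31 FPKM in KO and 0.33 and 0.28 FPKM in WT.

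Within each family the makeup was compared as a share of the summed FPKM. Cidec made up 2.81% and 2.55% of the CIDE sum in KO, against 1.16% and 0.894% in WT, while Cideb held 97.1% and 97.0% in KO and 98.8% and 99.0% in WT. Plin2 made up 85.5% and 85.2% of the perilipin sum in KO, against 84.3% and 81.1% in WT, and Plin3 5.62% and 6.26% in KO against 7.55% and 9.73% in WT. None of these 4 shares overlapped between genotypes. With 2 libraries against 2, the exact two-sided permutation test gave the smallest p it can reach, 0.333, for each of them, as for any share without overlap. Shares of one family depend on each other, so the 4 are not separate results and restate the Cidec and Plin3 differences in part. The share of Plin4 did not overlap either, at 0.146% and 0.534% in KO and 0.112% and 0.106% in WT, while those of Plin5 and Cidea did. No such rate was computed over all genes. The perilipin sum itself was 288 and 262 FPKM in KO and 290.2 and 251 FPKM in WT, so it overlapped.

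Fitm1 is best known from skeletal muscle, where it is more abundant than in liver. It had 39.1 and 44.1 FPKM in KO, against 25.7 and 26.3 FPKM in WT. The groups were far apart relative to their spread, and the mean was 1.60-fold higher in KO (log2 difference 0.65, SE 0.11, 95% interval 0.39 to 0.92, limma adjusted p = 0.205). Fitm1 ranked 48 by p among all genes tested. The adjusted p was 0.0171 without KO replicate 1, where 3.12% of all genes passed, and from 0.0171 to 0.9996 over all alternatives. The sums of muscle markers were 0 and 0.16 FPKM in KO and 7.28 and 0 FPKM in WT, as given above, and their part in the Fitm1 values was not tested.

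Fitm2, a form found in most tissues that acts as a lipid phosphatase of the endoplasmic reticulum, had 11.5 and 10.8 FPKM in KO, against 11.4 and 9.48 FPKM in WT. The groups overlapped, and the log2 difference was 0.09 (SE 0.12, 95% interval -0.21 to 0.39). It was -0.03 without WT replicate 2. Fitm1 made up 77.3% and 80.3% of the FITM sum in KO and 69.3% and 73.5% in WT, without overlap (exact two-sided permutation p = 0.333, the smallest possible).

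Hsd17b13 had 352 and 329 FPKM in KO, against 404 and 423 FPKM in WT. Both KO libraries were below both WT libraries, and the mean was 1.21-fold lower (log2 difference -0.28, SE 0.12, 95% interval -0.58 to 0.03, limma adjusted p = 0.647). The row with 1310 bases held 99.9% of the sum or more in every library, and the longer row of 1708 bases had at most 0.33 FPKM. The direction held with any 1 library left out, with log2 differences from -0.33 to -0.23.

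**Figure D3:**
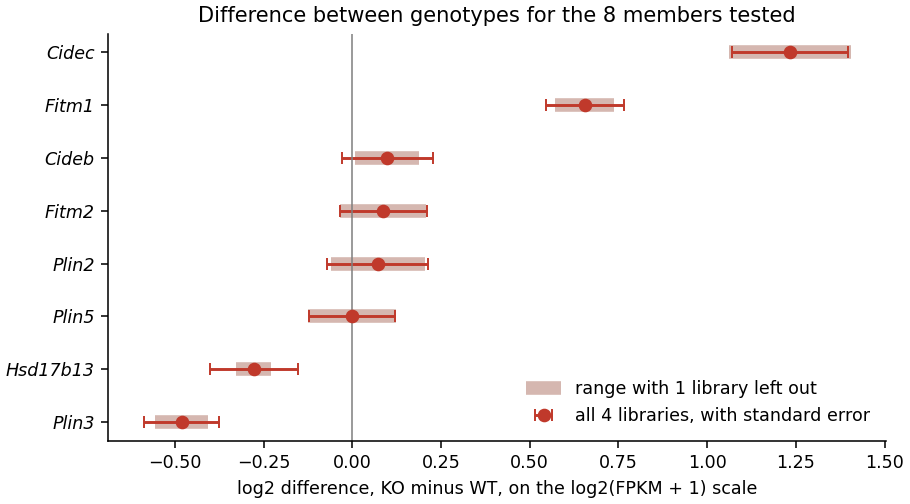
Log2 difference of the 8 members tested, KO minus WT, with 1 added to each FPKM value: points with bars give the value and standard error from all 4 libraries, and pale bands the range of values with 1 library left out. Cidec (1.23) and Fitm1 (0.65) lie to the right of 0, Plin3 (-0.48) and Hsd17b13 (-0.28) to the left, and the bands of Plin2, Plin5 and Fitm2 cross 0.

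Some members lie close together in the genome (RefSeq coordinates, GRCm38.p6). Plin4 (56100587 to 56109948) and Plin5 (56111597 to 56117606) are 1648 bases apart on chromosome 17, and Plin3 (56278962 to 56290511) lies 161355 bases farther on. These neighbours did not share a direction in their values. Plin3 was lower in KO (limma adjusted p = 0.352), Plin5 overlapped, and Plin4, too low to be tested, was higher. Fitm1 (55575674 to 55576952) and Cideb (55754052 to 55758424) lie on chromosome 14. Psme1, a proteasome activator gene that starts 1542 bases beyond Fitm1, had 88.8 and 86.6 FPKM in KO and 89.7 and 86.7 FPKM in WT. Whether counting used strand is not stated in the labels, so reads in the overlaps of members with other genes are uncertain in origin. By RefSeq gene span, the overlapping genes are the lncRNA Gm52871 for Cidec, the pseudogene Gm12551 for Plin2, and Nop9 and Ltb4r2 for Cideb. The others are Hdgfl2 for Plin4 and the lncRNAs B430212C06Rik for Cidea and 2310001K24Rik for Fitm2. Gm12551 ends at 86632221 on chromosome 4, outside the measured Plin2 transcript (86656565 to 86670060). Hdgfl2 ends at 56100605 on chromosome 17 and reaches only the edge of the measured Plin4 transcript (56100591 to 56109803). Gm52871 and Gm12551 were not analysed here. B430212C06Rik had at most 0.067 FPKM and 2310001K24Rik at most 0.47 FPKM in any library. Nop9 and Ltb4r2 had at most 7.60 FPKM, while Hdgfl2 had 11.6 and 13.3 FPKM in KO and 10.2 and 12.6 FPKM in WT.

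Other genes of the droplet were read from lists of their roles. Of 26 tested, 10 had a positive and 16 a negative difference, none passed over all genes, and the median log2 difference was -0.04 against 0.02 over all genes. Among 9 genes of droplet formation and growth, those with the smallest p were Pcyt1a, the rate-limiting enzyme of phosphatidylcholine synthesis for the growing surface, and Ldaf1, the partner of seipin. Pcyt1a had 14.5 and 14.3 FPKM in KO against 17.4 and 15.5 FPKM in WT, and Ldaf1 0.73 and 0.98 FPKM in KO against 1.59 and 0.87 FPKM in WT. Their limma adjusted p was 0.733 and 0.779.

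Among 6 genes of lipolysis at the droplet, G0s2, an inhibitor of the lipase ATGL, had 35.0 and 48.0 FPKM in KO, against 24.6 and 25.5 FPKM in WT, without overlap (log2 difference 0.69, SE 0.16, limma adjusted p = 0.402). Abhd5, the activator of the same lipase, had 15.6 and 7.99 FPKM in KO against 19.5 and 12.3 FPKM in WT, with overlap. Pnpla2, which encodes ATGL, overlapped too, at 13.0 and 15.7 FPKM in KO and 13.3 and 16.6 FPKM in WT. Pnpla3 was also on this list but did not reach a mean of 1 FPKM and was not tested. It had 0.037 and 0.040 FPKM in KO against 0.13 and 0.11 FPKM in WT, without overlap but near the floor.

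Of 11 other droplet and turnover genes, Nsdhl, a sterol synthesis enzyme that also sits on droplets, had 87.3 and 39.6 FPKM in KO against 34.3 and 29.0 FPKM in WT (log2 difference 0.88, SE 0.35, limma adjusted p = 0.627). Vps13c, a lipid transport protein, had 2.12 and 2.90 FPKM in KO against 3.07 and 3.12 FPKM in WT. Of the 4 regulators tested Srebf1 passed. Ppargc1a, also listed, did not reach a mean of 1 FPKM and was not tested. Its values were 0.30 and 0.37 FPKM in KO against 0.65 and 0.70 FPKM in WT. Pparg, whose product activates Cidec in fatty mouse liver, had 7.45 and 4.15 FPKM in KO, against 3.91 and 3.30 FPKM in WT (log2 difference 0.52, SE 0.24, limma adjusted p = 0.649). Its values did not overlap between genotypes, and its part in the Cidec values was not tested.

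**Figure D4:**
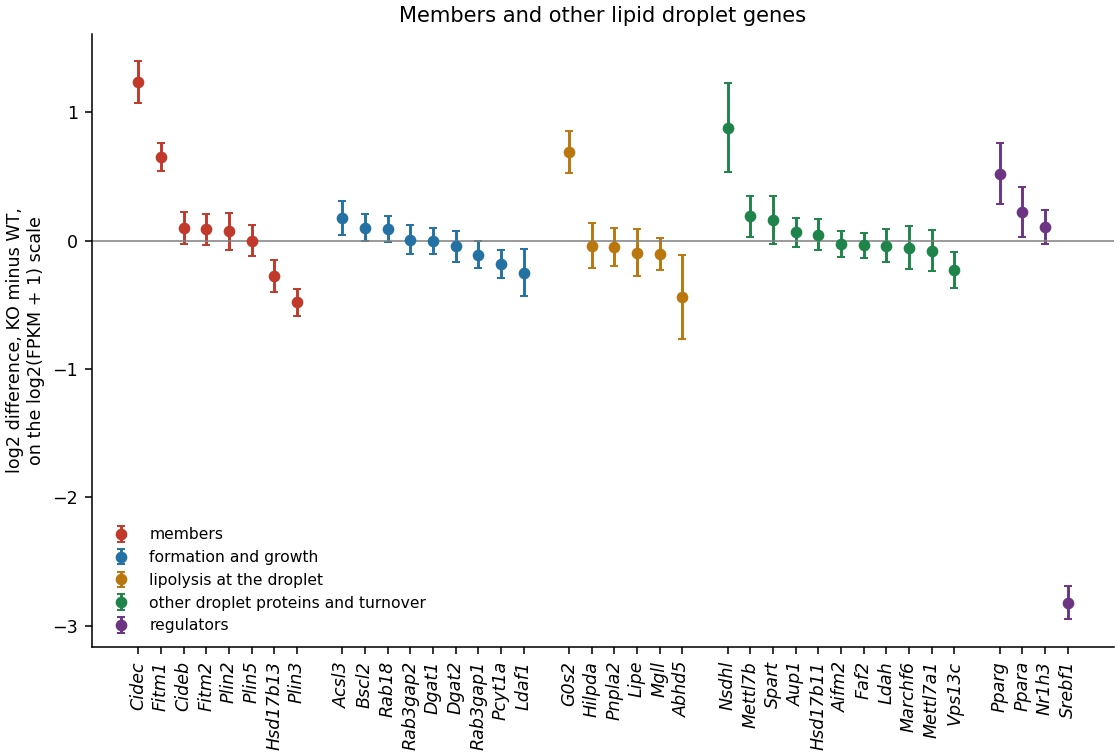
Log2 difference, KO minus WT, with 1 added to each FPKM value, and its standard error, for the 8 members tested and for 30 other droplet genes and regulators in 4 groups. Srebf1 lies at -2.82; outside the members, Nsdhl (0.88) and G0s2 (0.69) have the highest values and the standard errors of most others reach or nearly reach 0.

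PPARα, the fatty acid receptor that drives the fasting programme of hepatocytes, is also known to activate Plin2 and Plin5, and its fasting targets were therefore measured beside the members. The median of 11 such genes lay at 0.07 in KO replicate 1 and -0.06 in KO replicate 2 on the log2 scale relative to the WT mean, and at -0.01 and 0.01 in WT. By the same measure the median of the 8 members lay at 0.13 and 0.01 in KO and at 0.03 and -0.03 in WT. The PPARα targets moved in both directions, so their median does not show them unchanged. Their log2 differences, KO minus WT, were positive for 7 and negative for 4, from -0.81 (Pdk4) to 1.15 (Fgf21, with overlap). None passed the threshold. The median absolute log2 difference was 0.35 for these targets, 0.19 for the members and 0.11 over all genes tested. Macrophage markers summed to 53.7 and 96.4 FPKM in KO and to 70.5 and 56.5 FPKM in WT, and stellate cell markers to 58.7 and 61.0 FPKM in KO and to 51.5 and 57.9 FPKM in WT. Dcn gave most of the stellate sums. Colec11 had 11.9 and 13.3 FPKM in KO against 8.08 and 9.22 FPKM in WT, and the other stellate markers overlapped. Bile duct markers summed to 4.74 and 4.68 FPKM in KO and to 4.09 and 3.31 FPKM in WT. Their part in the differences of the members was not tested.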

How the data were processed

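Per the file headers, the authors deposited 1 table with an FPKM value for each RefSeq transcript in each library. The submitters' processing notes name Bowtie, TopHat and mm10. For versions, the program behind the FPKM values, its annotation and its handling of strand, nothing is stated (not given in the sources used here). There were 33170 transcript rows, and FPKM was summed over the rows of each gene number, because 5009 genes had several rows and the split between them depends on the FPKM program. Steps in the low values of single-row genes implied about 22.8 M and 20.5 M (mega) fragments for the KO libraries and 22.8 M and 20.8 M for the WT libraries. Only 50.9% to 53.6% of those values lay within 0.1 of a whole fragment, so no count test was run and these depths are approximate.

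Genes with a mean of at least 1 FPKM were tested with the moderated two-sided test of limma 3.58.1 (R 4.3.3, with a trend on intensity) on log2(FPKM + 1), with Benjamini-Hochberg adjustment over 9820 genes and a threshold of 0.05. A design with 2 libraries against 2 cannot give an exact two-sided permutation p below 0.333. The fit was also run on simulated data with 9820 genes, 200 of them changed, and independent noise drawn from the fitted variance prior. There, 82.9% of genes changed by 1 log2 unit and 98.8% of those changed by 2 were called, and 4.78% of calls were false. These rates describe that setting only. In the real libraries 7 genes passed, and shared deviations such as those of KO replicate 2 were not simulated, so the rates do not give the power here. Transcript starts, exons and lengths came from GENCODE M21 (mm10) through its RefSeq table. Promoters and gene coordinates came from RefSeq tables of GRCm38.p6. All 10 members had gene coordinates there, and 9 of the 10, all but Cidea, had a promoter. Further computing used python 3.11.15, pandas 2.3.3 and matplotlib 3.10.9.

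All 10 members, whatever their result, Srebf1, every other droplet gene past the threshold and the 2 with the smallest p of each role are named. Pnpla2, the untested Pnpla3 and Ppargc1a, and the marker genes were named beside them. The members, gene lists, tests and alternatives were chosen with earlier results of these data known. Alternatives changed the pseudocount (0.1 or 0.5), the filter (none, or 5 FPKM), the scaling (upper quartile or quantiles), the variance prior (untrended or robust), the feature (transcript rows), the design (replicate number as block), the libraries (each left out) and the threshold (0.1).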

Additional observations from a re-analysis of the deposited data

How the results depend on the processing

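Precision is limited by 2 libraries in each genotype, and for Plin4 and Cidea also by depth. The count of genes past the threshold, 7 with all libraries, was 11 with a pseudocount of 0.1, 0 without a filter (1233 genes had an unadjusted p under 0.05 in that limma fit), 3 with a minimum of 5 FPKM, 4 with quantile normalization, 15 with a robust prior, and 1 to 306 with 1 library left out. The 1 was without WT replicate 1, 4 without WT replicate 2, 306 without KO replicate 1 and 117 without KO replicate 2. The cause was not tested. Replicate numbers do not pair the samples by label: across 9820 genes the deviations of same-numbered libraries correlated at 0.167. With the replicate number as a block 19 genes passed and Cidec was past the threshold (log2 difference 1.23, limma adjusted p = 0.031, where 0.193% of all genes passed). Cidec also passed with either KO library left out (1.09 and 1.37), with a range of 1.06 to 1.40 over the 4 libraries left out, and Fitm1 did so without KO replicate 1 (0.74, range 0.57 to 0.74). No other member passed under any alternative. Cidec, Fitm1, Plin3, Hsd17b13 and Cideb kept their direction under all alternatives. Differences near 0 changed sign with 1 library left out: Plin2 ran from -0.060 to 0.20, Fitm2 from -0.034 to 0.21 and Plin5 from -0.12 to 0.12. The log2 difference of the leading row of Plin5 was 0.0985. The median of the members ran from -0.024 to 0.17 with 1 library left out. Of 30 other droplet genes and regulators, 1 passed with all libraries, 0 without a filter, and 0 to 3 with 1 library left out. The share of Plin5 in the perilipin sum did not keep its direction. Its KO minus WT difference was -0.168 percentage points with all libraries and had the opposite sign with leading rows, at 0.185 points. With 1 library left out it ran from -0.703 to 0.366 points. The other shares of perilipins and CIDE proteins kept their direction.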
